A study of Mus musculus with 2 samples.

Results

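The 10 genes described here encode the MHC class I antigen presentation pathway, namely the light chain B2m, the heavy chains H2-K1, H2-D1, H2-Q7 and H2-T23, the peptide transporter subunits Tap1 and Tap2, the loading factor Tapbp, the trimming peptidase Erap1 and the transcriptional activator Nlrc5. They were taken by gene symbol from the deposited count table, where all 10 were found among 49315 genes. RNA came from cells labelled as macrophages of mouse dorsal root ganglia, where the cell bodies of sensory neurons lie, and there was 1 library per group. In the chronic intermittent hypoxia group, a model of the oxygen dips of sleep apnoea, chamber oxygen moved between 21% and 8% in cycles of 6 min for 8 h a day over 14 days. The normoxia group had sham cycles at 21% in the same kind of chamber, and cells of both were taken about 18 h after the last session. No source used here gives genotype, strain, sex, age, the number of mice behind each library or how the cells were isolated. The hypoxia column was matched to its group by the initial of its code alone.

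MHC class I molecules carry peptides from inside the cell to its surface, where CD8+ T cells and natural killer cells read them. The proteasome cuts cytosolic proteins into peptides, the TAP transporter moves these into the endoplasmic reticulum, Erap1 trims them, and tapasin, the product of Tapbp, holds an empty heavy chain with B2m beside the transporter until a peptide binds. Nearly all nucleated cells make class I molecules, macrophages among them, and interferons raise most genes of the pathway through Irf1 and Nlrc5.

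Depth differed 15.0-fold, with 2171348 counts over 4640 genes in normoxia and 145056 over 2050 genes in hypoxia. Genes counted in 1 library alone had a median of 229 counts in normoxia and 39 in hypoxia among those with at least 10 counts. Taking such a gene as 1 starting molecule, an untested assumption, puts the libraries at about 9482 and 3719 molecules. A count of 0 in hypoxia allows up to 3 counts, or 20.7 CPM (CPM is a gene's count scaled to the library total), and 3 estimated molecules would be 807 CPM. All intervals below are exact 95% intervals on reads unless estimated molecules are named. They cover counting error only, since PCR reads without molecular identifiers are not independent molecules. With 1 library per group no p-value was computed and no difference has a replicate check. Macrophage markers took 2.28% of counts in normoxia and 2.24% in hypoxia, mostly from Lyz2, which neutrophils also express, with 34028 and 3164 counts. Of 14 such markers 11 were counted in normoxia and 3 of these in hypoxia, where Adgre1, Cd68, Csf1r, C1qa, C1qb and C1qc were at 0. Over all genes counted in normoxia, 25% were counted in hypoxia, and 47.4% of those above the upper quartile of normoxia counts, 439. The named markers at 0 lay above that quartile, from 610 normoxia counts for C1qb to 1764 for Adgre1. Neutrophil markers took 1.81% of counts in normoxia and 10.3% in hypoxia, with 9 and 10 of 12 counted. Erythroid markers took 9.70% and 7.94%, with 8 and 7 of 8 counted. B cell markers came to 500.2 CPM in normoxia, from 4 of 6 markers, and to 0 in hypoxia. Fewer cells of a type and less RNA per cell cannot be told apart in these libraries, and the part of cell makeup in the values below was not tested.

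The start regions of 4 members are shown because they carry short elements known for class I genes. These are the NF-kappaB element (searched as GGGATTCCC), the interferon-stimulated response element (GAAANNGAA), the core of the X2 box bound by the regulatory complex that Nlrc5 joins (TGACG), and the CCAAT element of the Y box (CCAAT). Each sequence runs 5′ to 3′ on the gene's strand, from 250 bases before the RefSeq start site, on GRCm38.p6, with matches on either strand in capitals. B2m lies at chr2:122147437-122147736 (plus strand), H2-K1 at chr17:34000298-34000597 (minus), H2-D1 at chr17:35262844-35263143 (plus) and Tap1 at chr17:34187306-34187605 (plus).
B2m: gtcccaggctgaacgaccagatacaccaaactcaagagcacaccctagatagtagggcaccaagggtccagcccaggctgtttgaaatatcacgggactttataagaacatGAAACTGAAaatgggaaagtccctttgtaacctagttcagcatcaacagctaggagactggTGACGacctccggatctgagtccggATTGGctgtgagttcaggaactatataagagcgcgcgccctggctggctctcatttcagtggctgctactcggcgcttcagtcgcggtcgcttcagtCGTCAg
H2-K1: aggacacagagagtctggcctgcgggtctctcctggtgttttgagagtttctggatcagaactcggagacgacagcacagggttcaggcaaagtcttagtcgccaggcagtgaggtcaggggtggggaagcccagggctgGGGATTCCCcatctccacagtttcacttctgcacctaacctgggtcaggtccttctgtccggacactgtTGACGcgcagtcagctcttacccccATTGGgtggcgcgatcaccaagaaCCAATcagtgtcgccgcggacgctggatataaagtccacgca
H2-D1: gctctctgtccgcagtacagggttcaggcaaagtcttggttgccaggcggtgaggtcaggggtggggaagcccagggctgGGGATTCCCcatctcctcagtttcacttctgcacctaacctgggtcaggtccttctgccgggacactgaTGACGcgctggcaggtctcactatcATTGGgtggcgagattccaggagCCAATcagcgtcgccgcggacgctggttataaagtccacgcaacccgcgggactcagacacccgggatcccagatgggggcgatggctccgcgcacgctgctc
Tap1: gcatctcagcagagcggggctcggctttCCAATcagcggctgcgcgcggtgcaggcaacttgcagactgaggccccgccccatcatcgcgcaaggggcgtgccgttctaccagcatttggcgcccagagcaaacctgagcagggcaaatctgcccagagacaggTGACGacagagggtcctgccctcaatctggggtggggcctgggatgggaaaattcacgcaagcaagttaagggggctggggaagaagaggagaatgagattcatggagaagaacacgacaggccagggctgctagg

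RefSeq held windows for 8 of the 10 members. It held 2 for H2-K1, and the one whose start site lay nearest the gene's 5′ end was used. Its forward CCAAT match began 8 bases after the start site, against 53 bases before it in H2-D1. Distances from the start site are therefore not aligned between these genes. The NF-kappaB letters stood in 3 of them, H2-K1, H2-D1 and H2-Q7, against 0.353% of 32851 windows in the whole table. These 3 windows are alike, with 80.1% to 89.5% identity over aligned bases, and are not independent matches. All elements searched were picked because they are known for class I genes, so shares above those of all windows were likely beforehand. The X2 core stood in 5 of 8 (B2m, H2-K1, H2-D1, H2-Q7 and Tap1), against 20.8%, and the CCAAT letters in 7 of 8, against 37.4%. The letters searched for the interferon element stood in 3 of 8 (B2m, H2-T23 and Erap1), against 8.56%, and in Erap1 they matched at 2 places that overlap each other. Other spellings of this element were not searched. H2-K1, H2-D1 and H2-Q7 had no match but share the letters cagtttcacttctg shortly after the NF-kappaB match. A window without a match is therefore not shown to lack an interferon element. From the first base of the NF-kappaB match to the first base of the X2 core was 69 bases in H2-K1 and H2-D1 and 68 in H2-Q7. On a global alignment, the windows of H2-K1 and H2-D1 were identical at 89.5% of 239 aligned bases, with the remainder in gaps, whereas H2-K1 and H2-T23 were identical at 56.8% of 271. No other motif overlapped a match of a different kind in these windows. A match describes the letters and is no evidence that a factor bound there.

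**Figure D1:**
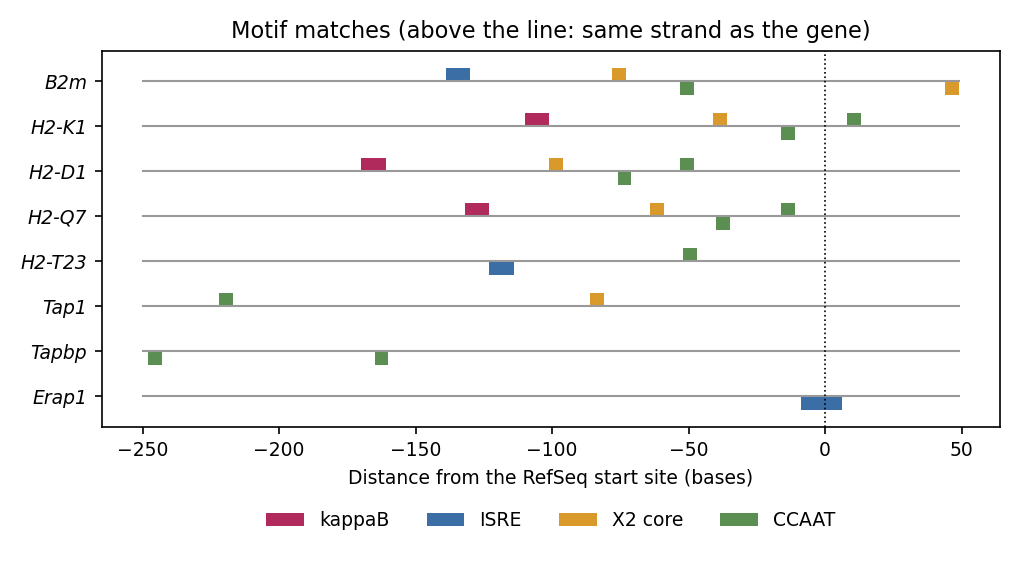
Matches of 4 sequence elements in the windows of the 8 members found in the RefSeq table, by distance in bases from the start site, with bars above a line on the gene's strand and bars below it on the other. The NF-kappaB, X2 and CCAAT matches of H2-K1, H2-D1 and H2-Q7 follow in the same order, 69, 69 and 68 bases apart for the first pair.

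The light chain and the heavy chains were counted in both libraries, and they made up nearly all reads of the pathway's 10 genes. Summed over all 10, the members held 11388 counts in normoxia, 0.525% of the library (0.515 to 0.534), and 609 in hypoxia, 0.420% (0.387 to 0.455). The hypoxia share was 0.801 times the normoxia share, and its interval ran from 0.737 to 0.869 for reads and from 0.422 to 1.44 for estimated molecules. The interval on reads lies below 1 and the interval on molecules holds it. The ratio was 0.459 with TMM scaling, which draws on the 1158 genes counted in both libraries, and 0.772 when scaled to a list of 14 housekeeping genes. It turned to 1.15 when Actb, which had more reads than any other gene of that list in hypoxia, was left out, so the direction of the summed share depends on the scaling.

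B2m, the light chain shared by all class I molecules (ENSMUSG00000060802, chromosome 2, 122147686 to 122153083 on GRCm38), had 5531 counts in normoxia and 269 in hypoxia, or 2547 and 1854 CPM. By TPM (abundance per transcript length, as deposited) it ranked 15th in normoxia at 5419 and 32nd in hypoxia at 3028, above every other member in both libraries. Its CPM ratio of hypoxia over normoxia was 0.728, with an interval of 0.642 to 0.823 on reads. On estimated molecules, 24.2 in normoxia and 6.90 in hypoxia, the interval was 0.263 to 1.75. The ratio was 0.417 with TMM, past 2-fold, and 1.04 on housekeeping genes without Actb, so neither its size nor its direction held under every scaling.

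H2-D1, a classical heavy chain that presents peptides to CD8+ T cells (ENSMUSG00000073411, chromosome 17, 35262730 to 35267499), had 3184 and 146 counts, or 1466 and 1007 CPM. Its ratio was 0.686 (0.577 to 0.810 on reads, 0.156 to 2.25 on molecules), the lowest of the members counted in both libraries. It stayed below 1 under every scaling tried, from 0.393 with TMM to 0.983 on housekeeping genes without Actb. H2-K1, the other classical heavy chain counted here (ENSMUSG00000061232, chromosome 17, 33996017 to 34000347), had 1795 and 114 counts, or 827 and 786 CPM. Its ratio of 0.951 (0.780 to 1.15) was close to 1 on total counts, 0.545 with TMM and 1.36 on housekeeping genes without Actb.

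H2-T23 encodes Qa-1, a non-classical heavy chain that shows leader peptides of other class I molecules to natural killer cell receptors (ENSMUSG00000067212, chromosome 17, 36029773 to 36032855). It had 506 and 42 counts, or 233 and 289.5 CPM, the single member with at least 50 counts whose CPM was higher in hypoxia. Its ratio of 1.24 had an interval of 0.885 to 1.70 on reads that holds 1, and it was 0.712 with TMM and 0.954 by deposited TPM. H2-Q7, a Qa-2 heavy chain (ENSMUSG00000060550, chromosome 17, 35439155 to 35443773), had 23 and 3 counts, or 10.6 and 20.7 CPM, and its ratio was 1.95 (0.375 to 6.46). Of its 50-base transcript words 26.4% also occur in transcripts of other genes, against 9.63% for H2-K1, 12.8% for H2-D1, 13.6% for H2-T23 and none for B2m. Reads that fit several heavy chains may have been dropped or split in the authors' counting, so the heavy chain values are uncertain to that extent.

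**Figure D2:**
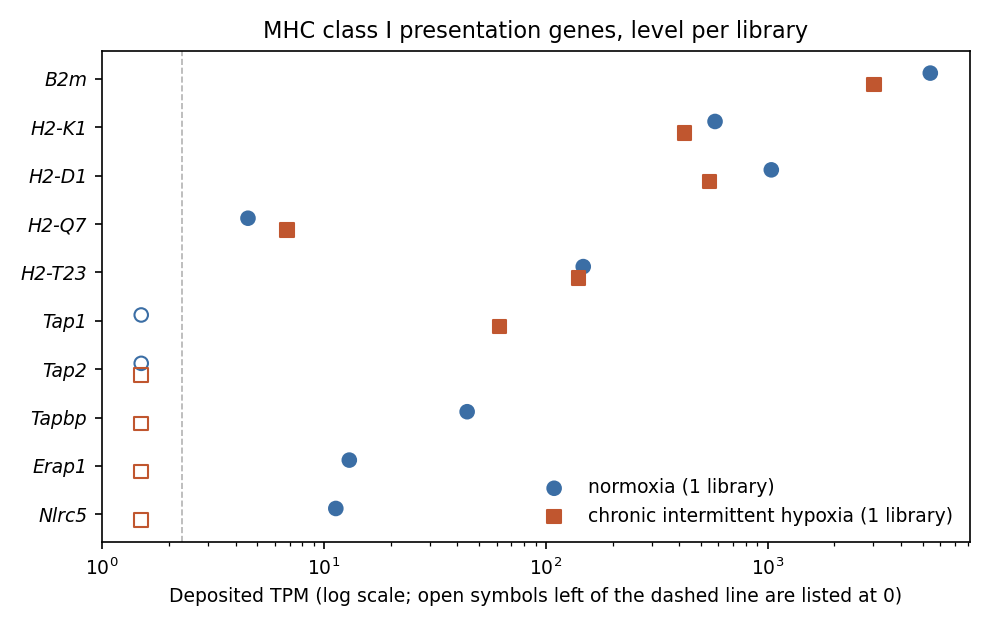
Deposited TPM of the 10 members on a log scale, with 1 circle for the normoxia library and 1 square for the hypoxia library per gene, and open symbols for a gene listed at 0. B2m, H2-D1, H2-K1 and H2-T23 keep this order in both libraries, from 5419 to 148 TPM in normoxia and from 3028 to 141 in hypoxia, and Tap1 is at 0 in normoxia alone.

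By TPM the members had the same leading order in both libraries. In normoxia H2-D1 followed B2m at 1040 TPM, then H2-K1 at 579.9, H2-T23 at 148, Tapbp at 44.2, Erap1 at 13.0, Nlrc5 at 11.3 and H2-Q7 at 4.54. In hypoxia H2-D1 followed at 548, then H2-K1 at 423, H2-T23 at 141, Tap1 at 61.9 and H2-Q7 at 6.81. As shares of the members' own counts, H2-D1 took 27.96% (27.1 to 28.8) and H2-K1 15.8% (15.1 to 16.4) in normoxia. In hypoxia H2-D1 took 23.97% (20.6 to 27.6) and H2-K1 18.7% (15.7 to 22.05), so their intervals overlap there and not in normoxia. The hypoxia intervals rest on 609 counts against 11388 and are wider, so this contrast alone shows no difference between the libraries.

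Ratios within a library need no scaling. The 4 heavy chains together had 5508 counts in normoxia, 0.996 per B2m count, and 305 in hypoxia, 1.13 per B2m count. The ratio of these was 1.14, with an interval of 0.959 to 1.35 on reads, so a shift between heavy and light chains was not detectable at this depth. H2-K1 relative to H2-D1 went from 0.564 to 0.781, a ratio of 1.39 (1.07 to 1.79 on reads). H2-T23 relative to H2-K1 and H2-D1 together went from 0.102 to 0.162, a ratio of 1.59 (1.11 to 2.24 on reads). Both intervals exclude 1 on reads, but on estimated molecules they ran from 0.151 to 10.0 and from 0.023 to 34.2.

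**Figure D3:**
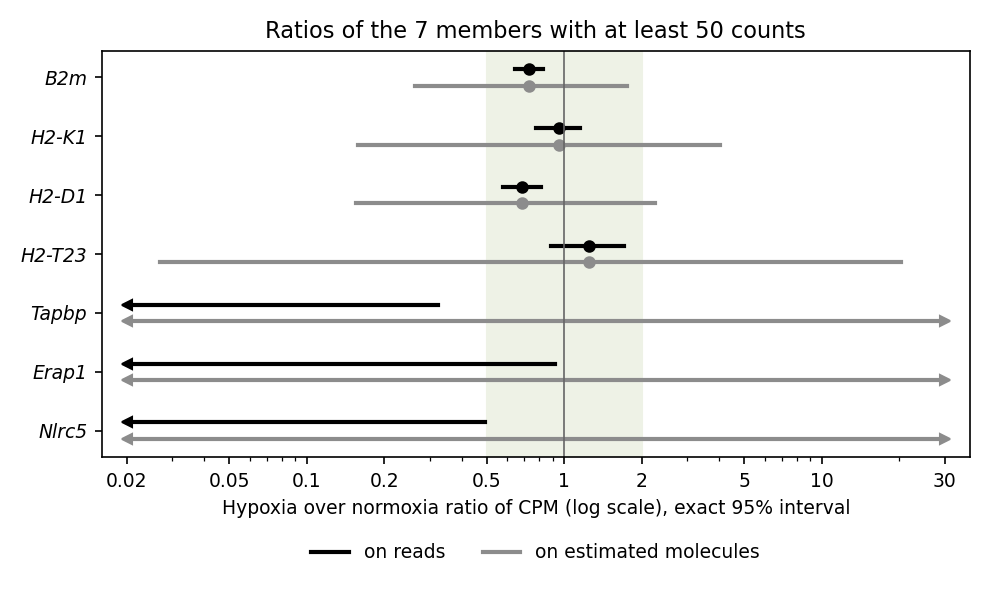
CPM ratio of hypoxia over normoxia on a log axis for the 7 members with at least 50 counts over both libraries, with exact 95% intervals on reads in black and on estimated molecules in grey. Arrows mark intervals that run past the axis, and the shaded band marks less than 2-fold. B2m, H2-K1, H2-D1 and H2-T23 lie inside the band from 0.686 to 1.24, and the 3 members at 0 in hypoxia have no point.

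The genes for peptide transport, loading and trimming had few reads in either library. Tapbp (ENSMUSG00000024308, chromosome 17, 33915899 to 33929292) had 173 counts in normoxia, 79.7 CPM, and 0 in hypoxia, at least 3.85-fold lower when the 0 is taken as 3 counts. Here and in every such fold below, that floor leaves out counting error in the other library. The exact interval of the Tapbp ratio reached up to 0.323 and so allows a smaller fold. At its normoxia share the hypoxia library would hold 11.6 counts of it, or 0.296 of an estimated molecule. Erap1 (ENSMUSG00000021583, chromosome 13, 74639568 to 74693201) had 62 counts, 28.55 CPM, and 0, at least 1.38-fold lower with an interval up to 0.918, and 4.14 counts or 0.106 of a molecule would match its normoxia share. On molecules neither 0 could be told from the normoxia share, being below the floor of 3.

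Tap1, which forms the peptide transporter with Tap2 (ENSMUSG00000037321, chromosome 17, 34187553 to 34197225), went the other way, with 0 counts in normoxia and 35 in hypoxia. On reads the ratio was at least 175 with the normoxia 0 taken as 3 counts, and its exact interval started at 135. The 35 counts are 0.897 of an estimated molecule, and the interval of the ratio on molecules starts at 0.0425. Tap1 fell under the minimum of 50 counts over both libraries that the size rule below needs. Its first 212 exonic bases also belong to Psmb9 on the other strand, and no source used here gives the strand setting of the counting. Psmb9 itself showed the opposite, 386 counts against 0. Tap2 (ENSMUSG00000024339, chromosome 17, 34203527 to 34216321) had 0 counts in both libraries, so no comparison of the 2 transporter subunits could be made.

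Nlrc5, the activator that drives class I genes from the X2 and neighbouring boxes (ENSMUSG00000074151, chromosome 8, 94434356 to 94527272), had 114 counts in normoxia, 52.5 CPM, and 0 in hypoxia, at least 2.54-fold lower on reads with an interval up to 0.492. At its normoxia share 7.62 counts or 0.195 of a molecule would stand in the hypoxia library. Together the transporter, loading and trimming genes and Nlrc5 held 349 counts in normoxia and 35 in hypoxia, or 1.52 and 0.897 estimated molecules, so each of these 5 genes was read in at most 1 molecule's worth of reads per library. Exons of Tapbp, Erap1 and Nlrc5 also overlap other genes, by up to 904, 834 and 78 bases, where reads cannot be told apart without strand.

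A gene was called lower or higher when its CPM ratio was at least 2-fold, its interval on reads excluded 1 and it had at least 50 counts over both libraries. For this rule a 0 was taken as 0, so a gene at 0 needed only the interval, and Erap1 would miss 2-fold with its 0 taken as 3 counts. That minimum is on raw reads, so it is met more readily in the normoxia library, which was 15.0-fold deeper. Tapbp, Erap1 and Nlrc5 met it through normoxia reads alone, whereas Tap1, with 35 reads in hypoxia alone, missed it. The split between lower and higher, here, over all genes and in the lists below, is tilted towards lower by this filter. Of the 10 members 7 had at least 50 counts. On total counts 3 of these 7 (42.9%) were lower, namely Tapbp, Erap1 and Nlrc5, all at 0 in hypoxia, none was higher and 4 were neither. Over all 4215 genes with that many counts, 71.5% were lower and 16.1% higher. With TMM 5 of 7 (71.4%) were lower, B2m and H2-D1 added, and none higher, against 75.7% and 11.9% of all genes. On estimated molecules no member was called, against 0.380% of all genes lower and 0.830% higher. The members' median log2 ratio with each 0 taken as 3 counts was −0.47, the value of Erap1, and −1.95 over all 4215 genes, of which 2845 were called lower at 0 in hypoxia. Both medians are set by that floor and by normoxia counts, and measure no change.

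The members counted in both libraries were, H2-Q7 aside, those with the most reads in normoxia. Among 8 members with normoxia counts, 5 (62.5%) also had hypoxia counts, against 25% of all genes. Above the upper quartile of normoxia counts, 439, all 4 members (B2m, H2-D1, H2-K1 and H2-T23) were counted in hypoxia, against 47.4% of the 1157 such genes. At or below it, 1 of 4 was counted, H2-Q7 with 3 counts, against 17.5%. The 47.4% was not matched for level, since B2m, H2-D1 and H2-K1 had 5531, 3184 and 1795 normoxia counts, far above 439. With 4 members on each side, these shares are descriptions of these libraries.

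**Figure D4:**
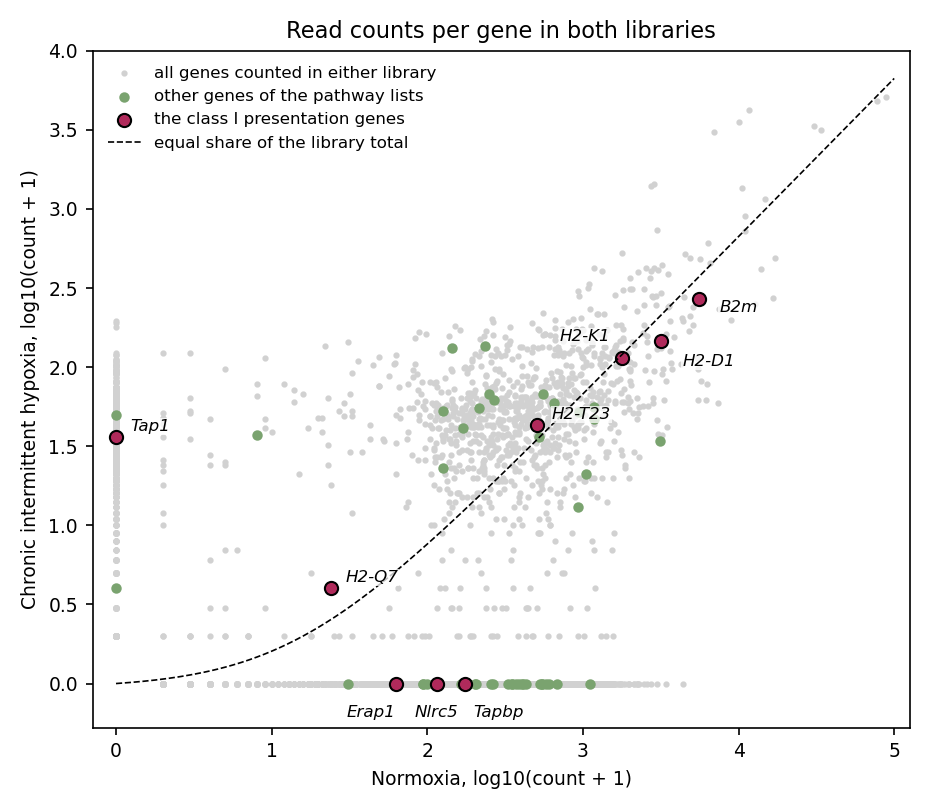
Read counts per gene as log10(count + 1) in normoxia and hypoxia, with all counted genes in grey, the other pathway genes in green and the members in red, and a dashed line where a gene holds an equal share of both libraries. B2m, H2-D1, H2-K1 and H2-T23 lie near the line, Tapbp, Erap1 and Nlrc5 lie on the lower axis at 0 counts in hypoxia, and Tap1 lies on the left axis at 0 counts in normoxia.

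Other class I and class I-like heavy chains were counted in normoxia and missing in hypoxia. Of 24 such genes present, 7 were counted in normoxia, all with at least 50 counts, and none in hypoxia, against 25% of all genes counted in normoxia. The H2 genes among them were H2-Q4 with 548 counts, H2-T22 with 406, H2-M3 (which presents formylated peptides) with 348, H2-Q6 with 255 and H2-T24 with 93. The class I-like genes were Hfe, a regulator of iron uptake, with 607 counts and Fcgrt, the neonatal Fc receptor that recycles immunoglobulin G, with 574. Each was lower on reads, as were 71.5% of all genes. With each 0 taken as 3 counts, the fold ran from 2.07 for H2-T24 to 13.5 for Hfe. Their exact intervals reached up to 0.606 and 0.091, which allow smaller folds. Summed, the 7 genes held 2831 counts in normoxia, 12.4 estimated molecules. At the same share the hypoxia library would hold 189 counts or 4.85 molecules. On total counts the interval of the summed ratio on molecules was 0 to 0.886. Scaling to housekeeping genes without Actb multiplies every ratio by 1.43, which is enough to bring 1 inside this interval. The member heavy chains, with 7.82 estimated molecules in hypoxia, had a summed ratio of 0.829 with an interval of 0.319 to 1.92 on molecules. That interval overlaps the one of the 7 genes at 0 in hypoxia. H2-Q6 shares 32.0% of its 50-base words with other genes and H2-T22 34.5%, so their counts are less certain than those of H2-M3 at 0.576%. Exons of H2-T22 and H2-Q4 also overlap other genes, by up to 1003 and 496 bases, where reads cannot be told apart without strand.

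Chaperones of the loading complex and the endoplasmic reticulum went both ways. Of 13 genes 10 had at least 50 counts, of which 5 were lower, 3 higher and 2 neither, beside 71.5% lower and 16.1% higher over all genes. Calr, the calreticulin that holds heavy chains for loading, had 250 and 67 counts, 4.01-fold higher (3.02 to 5.27). Its relative Canx had 1183 and 55, a ratio of 0.696 (0.521 to 0.912), and was called lower with TMM at 0.399. Pdia3, which joins tapasin in the loading complex, had 1110 and 0 counts, 24.7-fold lower with the 0 taken as 3 counts (interval up to 0.0498). The tapasin relative Tapbpl had 114 and 0. The translocon genes Sec61b (213 and 54) and Sec61a1 (125 and 22) were 3.79-fold and 2.64-fold higher, the latter 1.51-fold and not called with TMM. On estimated molecules none of the 10 was called.

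Immunoproteasome subunits, which replace the constitutive catalytic subunits and favour class I peptides, also split. All 8 genes of the immunoproteasome and activator list had at least 50 counts, and 5 were lower and 3 higher, beside the same 71.5% and 16.1%. Psmb8 had 234 counts in normoxia and 136 in hypoxia, 8.70-fold higher (6.99 to 10.8). Its exons overlap a gene on the other strand by 498 bases, where reads cannot be told apart without strand. Psmb10 had 268 and 61, 3.41-fold higher (2.54 to 4.51), or 1.95-fold and not called with TMM. The third catalytic subunit, Psmb9, had 386 and 0 counts, 8.60-fold lower with the 0 taken as 3 counts (interval up to 0.144). The activator subunit Psme1 had 144 and 131 counts, 13.6-fold higher (10.7 to 17.4). Its partner Psme2 had 262 and 0, 5.83-fold lower with the 0 taken as 3 counts (interval up to 0.212). Within each of these complexes, subunits were called in opposite directions on reads. On molecules the intervals of Psmb8 and Psme1 started at 0.796 and 0.884, so both hold 1. The constitutive subunit Psmb7 had 1185 and 46 counts, a ratio of 0.581, and Psmb5 and Psmb6 had 0 in both libraries.

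Cytosolic peptidases, which cut or destroy peptides before transport, had 4 of 7 genes with at least 50 counts. Tpp2 (329 counts), Nrd1 (182) and Lap3 (99) had 0 counts in hypoxia, and Npepps had 126 and 52, 6.18-fold higher (4.38 to 8.60). Of 18 genes for class I transcription and interferon signalling 13 had at least 50 counts, of which 9 were lower, 1 higher and 3 neither, a share lower near the 71.5% of all genes. The 9 were at 0 in hypoxia, led by Nfkb1 (682 counts in normoxia), Irf1 (542), Jak1 (526) and Stat2 (411). Irf8, a factor of monocytes and macrophages, had 168 and 40 counts, 3.56-fold higher (2.46 to 5.06). The interferon receptor genes Ifngr1 (650 and 58) and Ifnar2 (941 and 51) and the NF-kappaB subunit gene Rela (550 and 67) were under 2-fold, at ratios of 1.34, 0.811 and 1.82, but Ifnar2 was called lower with TMM at 0.465. Rfx5, Rfxank and Creb1, which bind the X boxes, had 0 in both libraries, and Rfxap had 201 and 0.

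**Figure D5:**
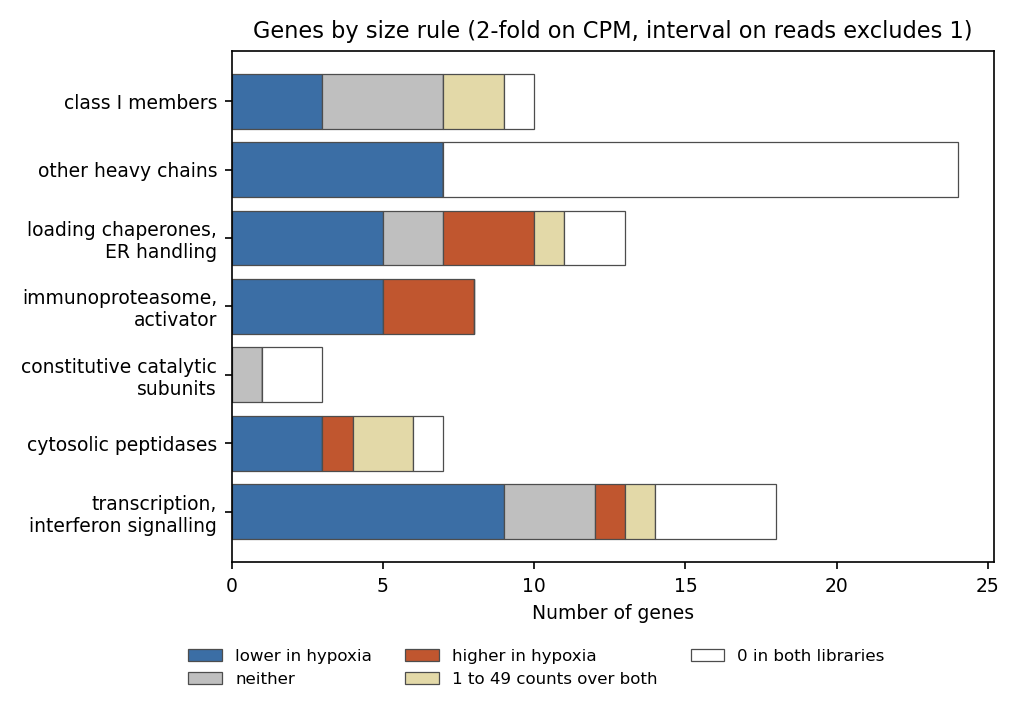
Number of genes in the class I members and 6 other lists of the pathway, stacked by the size rule on total counts as lower, neither or higher in hypoxia, with 1 to 49 counts over both libraries, or with 0 in both. Of the 7 members with at least 50 counts 3 were lower and none higher, and of 43 such other genes 29 were lower and 8 higher. Over all 4215 such genes, 71.5% were lower and 16.1% higher.

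Over these 6 lists, 73 genes were in the table and 43 had at least 50 counts. On total counts 29 of the 43 were lower, 26 of them at 0 in hypoxia, 8 were higher and 6 were neither, against 32 lower and 6 higher with TMM and beside the 71.5% and 16.1% of all genes. Their median log2 ratio with each 0 taken as 3 counts was −2.02, a value also set by the floor. On estimated molecules none was called in either direction.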

How the data were processed

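RNA libraries of 2 samples, 1 per group, were prepared from TRIzol-extracted RNA using NEBNext Ultra II, per the labels' protocols. Reads passed through STAR 2.5.2b, bcl2fastq 2.20 and Subread 1.5.2 (featureCounts), in an order not stated, per the submitters' processing notes. No source used here gives the build, annotation or strand setting. The authors deposited raw read counts per gene and TPM values. TPM per count differed between libraries by the same factor (11.49) for all members, and TPM served to order genes and as an alternative scaling.

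Counts were scaled by the library total (CPM). Ratios have exact Clopper-Pearson conditional binomial intervals (scipy 1.17.1), checked on simulated independent reads. That check cannot show how the intervals behave with PCR copies, and the intervals on estimated molecules were not simulated. Alternatives were TMM (edgeR 4.0.16, R 4.3.3), median-of-ratios size factors (DESeq2 1.42.0), housekeeping and ribosomal protein genes, deposited TPM ratios, other filters and folds, and counts divided by reads per molecule. Scaling without Actb or Eef1a1, scaling to ribosomal protein genes and the split at the upper quartile were chosen after seeing the data. The members and lists were chosen with earlier results of these data known. Some genes of the lists are not reported here. All members are named, and of the other lists genes with at least 50 counts (Psmb5, Psmb6, Rfx5, Rfxank and Creb1 were named after their values were seen). Positions and transcript words came from GENCODE M21 on GRCm38, which may not be the authors' build, and start regions from RefSeq.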

Additional observations from a re-analysis of the deposited data

How the results depend on the processing

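The summed share of the members in hypoxia over normoxia, 0.801 on total counts, was 0.459 with TMM, 0.476 with median-of-ratios size factors, 0.580 by deposited TPM, 0.582 on housekeeping genes without Eef1a1, 0.471 on ribosomal protein genes and 0.869 without B2m, and it turned to 1.15 on housekeeping genes without Actb. A scaling moves every log2 ratio together, by −0.80 with TMM and by 0.52 without Actb. The value without B2m changes the members summed and not the scaling. The value by deposited TPM is a ratio of summed TPM, which also weights genes by length. Of the 7 members with at least 50 counts, 3 were called lower on total counts. This number was 5 with TMM, with median-of-ratios and on ribosomal protein genes, and 0 on estimated molecules. Over all genes 71.5% were lower on total counts and 75.7% with TMM, and median-of-ratios and ribosomal protein scaling have no such share here. The number of members called higher, 0, was 1 (Tap1) with no filter on low counts. The 29 lower and 8 higher of the other pathway genes both became 0 on estimated molecules. The ratio of H2-T23, 1.24, turned to 0.712 with TMM, 0.739 with median-of-ratios, 0.954 by deposited TPM, 0.904 without Eef1a1 and 0.732 on ribosomal protein genes. Without Actb the ratios of B2m and H2-K1 turned to 1.04 and 1.36, and Erap1 was no longer called. The cause of these shifts was not tested beyond the scaling factors themselves. No paired analysis was possible because each group has 1 library, and for the same reason no library could be left out. Depth limits the members at 0 in hypoxia, none of which had as many as 3 estimated molecules in normoxia.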
